A study of Homo sapiens with 6 samples.

Results

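The common gamma-chain cytokine receptors are the cell surface receptors for interleukins 2, 4, 7, 9, 15 and 21. The 8 genes described here, IL2RA, IL2RB, IL2RG, IL4R, IL7R, IL9R, IL15RA and IL21R, were chosen by name as the subunits of these receptors, and all 8 were found among the 33644 genes of the table. The labels describe 3 samples of an alt-LAMA3 KO line derived from HEK293T and 3 samples of HEK293T with the genotype WT, all with no treatment named and at day 0, and do not state the number of clones or cultures behind each group. HEK293T cells derive from human embryonic kidney and express the large T antigen of SV40. The name alt-LAMA3 refers to LAMA3, a laminin chain gene. The processed table gives 1 comparison between 2 groups that it does not name, and no value per sample. A positive log2 fold change means higher expression in what is called here the numerator group, the other being the denominator group. Neither is equated with the KO or the WT samples.

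Each of these receptors contains the chain encoded by IL2RG, which passes the signal on through the kinase JAK3, while the partner chain decides which cytokine is bound and usually signals through JAK1. IL2RA and IL15RA are alpha chains that raise the affinity for their cytokine, IL2RB is the signalling chain that the receptors for interleukins 2 and 15 share, and IL4R, IL7R, IL9R and IL21R each pair with the gamma chain directly. The kinases phosphorylate STAT transcription factors, mainly STAT5A and STAT5B, STAT6 for interleukin 4 and STAT3 for interleukin 21. In T lymphocytes these receptors govern survival, growth and differentiation.

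The start regions of 4 genes are shown because they belong to the most abundant subunit, the shared chain, and the members that fell and rose by the largest factor. They are RefSeq sequences on GRCh38.p14, each with 250 bases before and 50 after the annotated start, read 5′ to 3′ on the strand of the gene, and 7 of the 8 members matched an entry. Capitals mark GGAAG, the core of ETS motifs, in IL2RA (chr10:6062318-6062617, minus strand), GTAAACA, a forkhead type motif, in IL2RG (chrX:71111528-71111827, minus strand), and TGTGGT, a RUNX type motif, in IL9R (chrX:155997446-155997745, plus strand) and IL21R (chr16:27427021-27427320, plus strand), each searched on both strands.
IL2RA: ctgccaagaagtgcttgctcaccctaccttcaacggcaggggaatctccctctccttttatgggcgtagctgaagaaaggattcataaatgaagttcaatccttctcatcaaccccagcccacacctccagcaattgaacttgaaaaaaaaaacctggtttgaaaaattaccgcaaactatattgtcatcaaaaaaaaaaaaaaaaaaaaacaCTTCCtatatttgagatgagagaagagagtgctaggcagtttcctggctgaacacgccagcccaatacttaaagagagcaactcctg
IL2RG: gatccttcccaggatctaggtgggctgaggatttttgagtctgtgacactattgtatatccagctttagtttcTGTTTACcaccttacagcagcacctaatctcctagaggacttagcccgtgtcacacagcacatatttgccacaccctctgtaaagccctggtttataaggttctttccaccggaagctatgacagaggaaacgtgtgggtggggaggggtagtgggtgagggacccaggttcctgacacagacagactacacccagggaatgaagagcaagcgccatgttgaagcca
IL9R: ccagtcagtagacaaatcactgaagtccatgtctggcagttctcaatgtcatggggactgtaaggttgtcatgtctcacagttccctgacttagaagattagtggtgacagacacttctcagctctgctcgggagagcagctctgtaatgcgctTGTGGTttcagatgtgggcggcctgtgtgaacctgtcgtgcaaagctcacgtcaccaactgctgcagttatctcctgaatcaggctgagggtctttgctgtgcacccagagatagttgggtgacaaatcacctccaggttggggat
IL21R: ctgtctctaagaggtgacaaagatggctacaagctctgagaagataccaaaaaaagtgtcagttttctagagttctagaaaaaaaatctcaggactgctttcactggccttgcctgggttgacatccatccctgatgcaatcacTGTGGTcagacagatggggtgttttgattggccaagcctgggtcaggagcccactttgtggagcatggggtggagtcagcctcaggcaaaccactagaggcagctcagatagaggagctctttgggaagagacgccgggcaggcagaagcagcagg

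In IL2RA and IL2RG the marked letters lie on the opposite strand and read as the reverse complement. Only the named motif is marked in each gene, and the ETS core also occurs, unmarked, in the regions shown for IL2RG and IL21R. Of 35116 RefSeq promoter sequences of the same length, 71.9% held the ETS core, 3.42% the forkhead type and 13.1% the RUNX type. The STAT motif TTCNNNGAA was in 7.66% of them and, among the members, in 1 of the 4 listed starts of IL15RA. A palindrome in these letters, it matched there on both strands at the same bases. These matches are letters in a window and not sites of binding, and the motifs were chosen after the data had been seen.

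The labelled cell type was checked against marker genes, using the mean normalized count that the table gives over all libraries, and the markers went against the label. Whether the table was made from the labelled samples is not known from the sources used here, and its values are not assigned to HEK293T cells. In the authors' deposited table, 0 of 6 markers of HEK293 lines reached 72.0, which is 5 per 1000000 of the summed means, and the highest of them was KRT8 at 3.42. T-lymphocyte markers reached it in 7 of 9 genes, with CD8A at 27074, although CD4 and CD5 stood at 1.83 and 1.87 in the authors' deposited table. Markers of B cells and of myeloid cells reached it in 0 of 5 genes each, those of NK cells in 2 of 5 and those of mast cells in 1 of 4. The lowest means formed 9 values that at least 100 genes shared, 3 with positive, 3 with negative and 3 with zero log2 fold changes, where 6 labelled samples would give 6 values. The means may therefore include libraries outside the 2 groups, and no level per group could be derived from them. In bulk RNA, fewer cells of a type and less RNA per cell cannot be told apart.

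The subunits differed widely in level. Levels were compared per kb of exon, as the mean normalized count in the authors' deposited table divided by the summed length of all exons. IL2RA was the most abundant at 7064 per kb, followed by the shared chain IL2RG at 6624 per kb. Of 15375 protein-coding genes with a mean above 0, 99.7% had a lower level per kb than either. IL9R was next at 2384 per kb, above 99.1% of those genes. The alpha chain of the interleukin-2 receptor, the shared chain and the interleukin-9 receptor were thus all among the most abundant protein-coding mRNAs of these libraries.

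IL4R had 434 per kb and IL21R 125 per kb. IL15RA had 68.6 per kb, and IL7R, the receptor of the survival cytokine interleukin 7, had 14.1 per kb, above 46.1% of protein-coding genes. IL2RB was the lowest at 1.71 per kb, 4134 times below IL2RA, the chain with which it forms the high-affinity receptor. Its mean normalized count in the authors' deposited table was 8.03, which sums to about 48.2 normalized reads over 6 libraries or 72.3 over 9. Whether this low mean counts all reads of IL2RB is not known from the sources used here. The gap to IL2RA may therefore not be one of expression. The spread over samples is not known, so neighbours in this order cannot be tested against it. With the length of the longest protein-coding transcript in place of all exons, IL2RG at 11918 per kb stood above IL2RA at 8813 per kb, and IL15RA at 135 per kb came close to IL21R at 141 per kb.

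**Figure D1:**
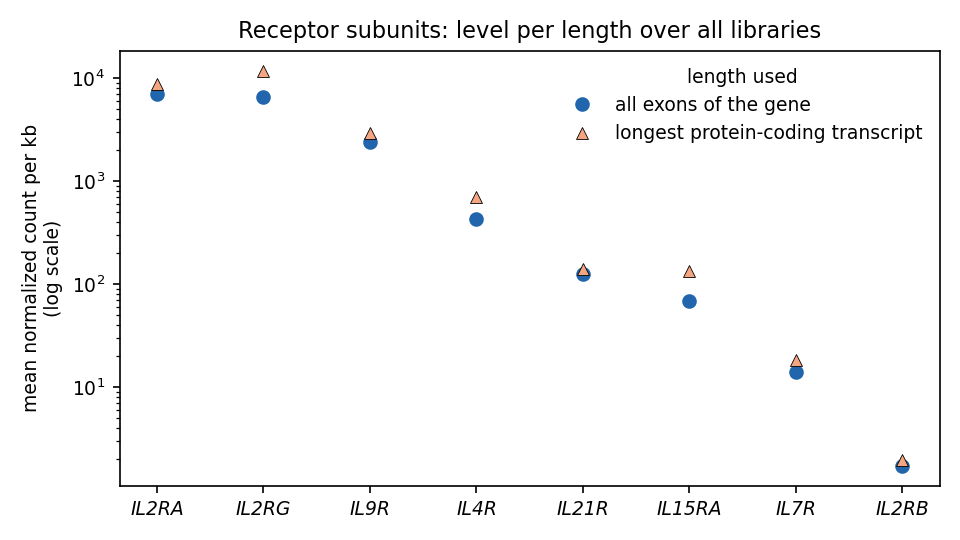
Mean normalized count per kb over all libraries for the 8 receptor subunits, on a log scale, with circles for the length of all exons and triangles for the longest protein-coding transcript. IL2RA and IL2RG lead at 7064 and 6624 per kb of exon, and IL2RB, whose reads may not all be counted, is lowest at 1.71. No error is drawn because the table holds no value per sample.

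Several of these means carry a counting limit that follows from the annotation. In GENCODE 29, 50.8% of the exon bases of IL2RG are shared with AL590764.2, a gene on the same strand that also overlaps the neighbouring CXorf65, and 23.3% of those of IL21R with the antisense gene IL21R-AS1. Neither partner is among the genes analysed, and whether counting used strand is not given in the sources used here. IL9R lies in the pseudoautosomal region and has pseudogene copies. Of its distinct 31-base words, 29.4% also occur in transcripts of the pseudogene IL9RP3, and 18.3% of its 75-base words do. IL9RP3 had a mean normalized count of 183 in the authors' deposited table, against 5969 for IL9R. For IL2RA, IL2RB and IL7R, 0 of the 75-base words were shared with another gene.

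Between the 2 groups, 5 of the 8 subunits passed an adjusted p of 0.05, where 29.5% of the 13957 genes tested did. IL21R and IL4R were higher in the numerator group (14.7% of tested genes were), and IL9R, IL2RG and IL2RA were lower (14.8% were). IL15RA, IL7R and IL2RB did not pass. All 8 members had an adjusted p, and 7 of them had a mean of at least 72.0. Of those 7, 5 passed, 2 of them higher and 3 lower, where 42.6% of 8312 genes tested at that level passed, 21.0% higher and 21.6% lower. Adjusted over every gene with a p-value, over genes with a mean of at least 72.0 or over protein-coding genes, the same count of 5 members stood beside 18.0%, 45.7% and 32.4% of all genes tested that way. Stricter tests left fewer: 3 members by Bonferroni adjustment (12.6% of genes passed), 2 with standard errors widened 2.03 times to the spread of all statistics (8.57% passed) and 1 against a 1.5-fold change (4.68% passed). Their median log2 fold change was -0.17 and that of all tested genes 0.00. The median size of the change, leaving out its sign, was 0.31 for all 8 members, among them IL2RB with a mean below 72.0. It was 0.28 for tested genes with a mean of at least 72.0. By this median the receptor genes lay near the middle of all well-measured genes, and 1 of the 8 passed with a change of at least 2-fold, where 8.04% of tested genes did.

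That gene was IL21R, the receptor chain for interleukin 21, a cytokine made chiefly by helper T cells (ENSG00000103522.15; chromosome 16, from 27402162 to 27452042, plus strand, GRCh38). In the authors' deposited table it had a mean normalized count of 684, and its log2 fold change was 1.14 (SE 0.14, adjusted p = 1.64e-15). This corresponds to 2.21-fold higher expression, with a 95% interval of 1.83 to 2.66 from the deposited standard error. Of tested genes with a mean of at least 72.0, 94.6% changed by less, and 3.46% passed as at least 2-fold higher.

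IL4R, the signalling chain for interleukins 4 and 13 (ENSG00000077238.13; chromosome 16, from 27313668 to 27364778, plus strand), rose less. Its mean normalized count in the authors' deposited table was 2560 and its change 0.30 on the log2 scale (SE 0.07, adjusted p = 0.000324). It was 1.23-fold higher, with a 95% interval of 1.11 to 1.37. The call was lost with widened errors (adjusted p = 0.295), with Bonferroni adjustment (0.699) and against a 1.5-fold change. IL4R and IL21R are neighbours on the same strand, 37384 bases apart. The next gene beyond IL21R, the RNA polymerase III factor gene GTF3C1, was also higher in the authors' deposited table, at 0.43 (SE 0.11).

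The shared chain IL2RG (ENSG00000147168.12; chromosome X, from 71107404 to 71112108, minus strand) fell. Its log2 fold change was -0.32 (SE 0.06, adjusted p = 1.75e-07) at a mean normalized count of 18282 in the authors' deposited table. The numerator group had 0.80 times the level of the denominator group, with a 95% interval of 0.74 to 0.86. With widened errors this call was lost (adjusted p = 0.0592).

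IL9R, whose cytokine interleukin 9 acts on T cells and mast cells (ENSG00000124334.17; chromosome X, from 155997581 to 156010817, plus strand), had the largest fall among the subunits past the threshold. On the log2 scale the change was -0.48 in the authors' deposited table (SE 0.07, adjusted p = 1.81e-09) at a mean normalized count of 5969, which is 0.72 times the level of the denominator group with a 95% interval of 0.65 to 0.79. In the authors' deposited table the pseudogene IL9RP3 stood at -0.24 (SE 0.16, adjusted p = 0.295) and did not pass.

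IL2RA, also known as CD25, a marker of activated T cells (ENSG00000134460.15; chromosome 10, from 6010689 to 6062370, minus strand), fell by a small factor. Its log2 fold change was -0.14 (SE 0.05, adjusted p = 0.018) at a mean normalized count of 27989 in the authors' deposited table. That is 0.91 times the level of the denominator group, with a 95% interval of 0.85 to 0.97, and 26.6% of tested genes with a mean of at least 72.0 changed by less. With widened errors the adjusted p of IL2RA was 0.653.

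**Figure D2:**
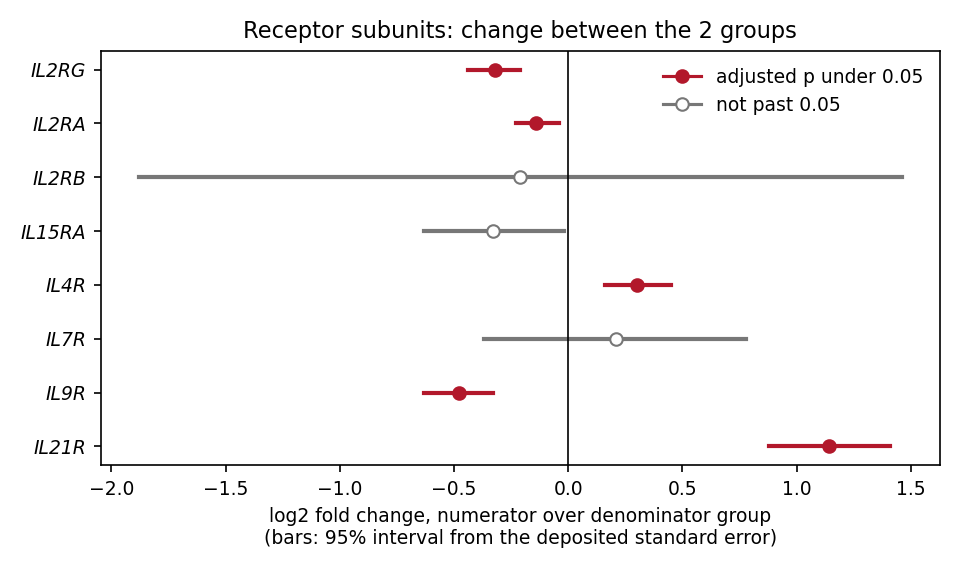
Log2 fold change of each receptor subunit, numerator over denominator group, with bars for the 95% interval from the deposited standard error and filled points for an adjusted p under 0.05. IL21R stands apart at 1.14, IL2RG, IL2RA and IL9R lie between -0.48 and -0.14, and the interval of IL2RB runs from -1.88 to 1.46.

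The subunits that did not pass differed in how far the data bound their change. IL15RA, which presents interleukin 15 to neighbouring cells (ENSG00000134470.20; chromosome 10, from 5943639 to 5978187, minus strand), was at -0.33 (SE 0.15, adjusted p = 0.0985) with a mean normalized count of 249 in the authors' deposited table. That value is close to that of IL2RG, whose error is smaller. IL7R (ENSG00000168685.14; chromosome 5, from 35852695 to 35879603, plus strand) was at 0.21 (SE 0.29, adjusted p = 0.681) with a mean normalized count of 85.5 in the authors' deposited table, and its 95% interval runs from 0.78-fold to 1.72-fold. IL2RB (ENSG00000100385.13; chromosome 22, from 37125838 to 37175054, minus strand) stood in the authors' deposited table at -0.21 (SE 0.85, adjusted p = 0.902), with an interval from 0.27-fold to 2.75-fold. The interval of IL2RB includes a change of 2-fold in either direction.

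**Figure D3:**
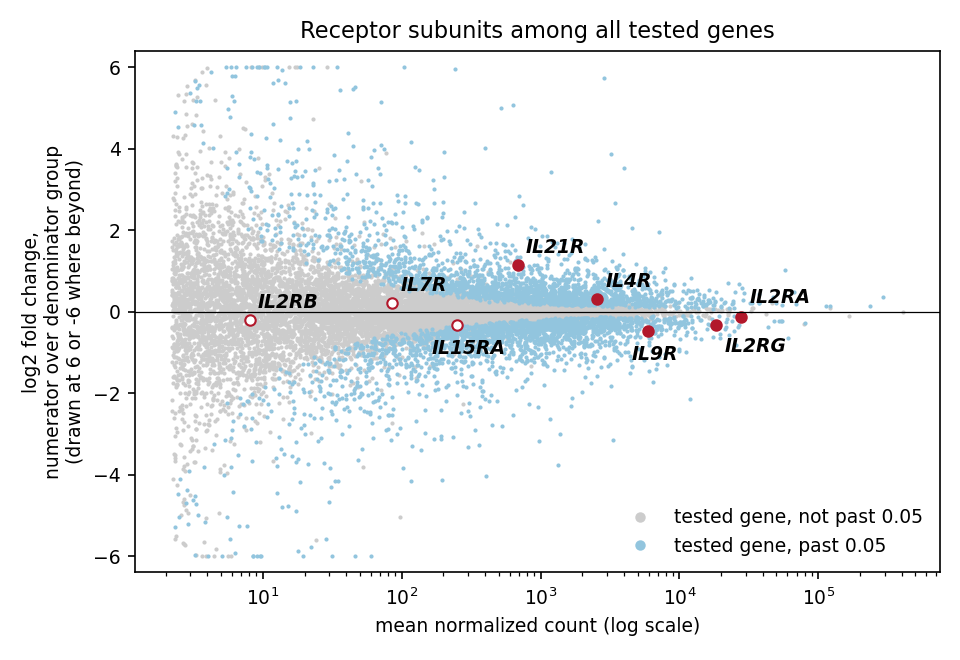
Each dot is 1 of the 13957 tested genes, by mean normalized count (log scale) and log2 fold change of the numerator over the denominator group, with the 8 receptor subunits in red, filled where past 0.05. The subunits run from 8.03 (IL2RB) to 27989 (IL2RA), and IL21R at 1.14 is the member farthest from 0.

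Several markers of T lymphocytes and NK cells were lower in the numerator group, as were the subunits that fell. The summed mean of the T-lymphocyte list over all libraries was 61003, and 0 of the 9 in the table were listed at 0. Of 7 tested, 5 were lower and 0 higher, with a median log2 fold change of -0.60, where 21.6% of tested genes with a mean of at least 72.0, as all 7 had, were lower. In the authors' deposited table CD3D was at -0.77 (SE 0.06), CD247 at -0.64 (SE 0.09), CD8B at -0.60 (SE 0.08), CD3E at -0.51 (SE 0.06) and CD8A at -0.32 (SE 0.07). The counts of the other marker lists stand beside shares of 14.7% higher and 14.8% lower over all tested genes. Several of their genes had means below 72.0. NK-cell markers had 3 of 4 tested genes lower and 0 higher, with a median of -1.49, a summed mean of 1420 and NCR1 listed at 0. Of these, NCAM1 was at -1.61 (SE 0.10), FCGR3A at -1.36 (SE 0.33) and NKG7 at -0.89 (SE 0.08), as the authors' deposited table gives them. The 1 tested mast cell marker, KIT, was lower in the authors' deposited table at -0.80 (SE 0.15), with CPA3 and FCER1A listed at 0. Markers of B cells and of myeloid cells summed to means of 32.3 and 31, with MS4A1, PAX5 and SPI1 listed at 0, and had 1 of 2 and 1 of 4 tested genes lower and 0 and 1 higher. Among them, CD79B at -2.37 (SE 0.43) and LYZ at -6.02 (SE 1.93) were lower and CSF1R at 4.20 (SE 0.76) was higher in the authors' deposited table. The part of these markers in the falls of IL2RG, IL9R and IL2RA was not tested.

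The counts of other genes of the pathway stand beside shares of 14.7% higher and 14.8% lower over all tested genes, and 21.0% and 21.6% among those with a mean of at least 72.0. The cytokines themselves were scarce. Of the 6 ligand genes, 5 are in the table and 0 reached a mean of 72.0, with IL4 highest at 36.9 in the authors' deposited table and IL9 listed at 0. Of 4 tested, 2 were lower and 0 higher. IL7 was at -3.79 (SE 1.13) with a mean of 12.6, and IL4 at -2.12 (SE 0.51) in the authors' deposited table, and both passed. IL2 at -2.53 (SE 1.26, adjusted p = 0.123) and IL15 at -0.90 (SE 0.82, adjusted p = 0.475) did not pass in the authors' deposited table. IL21 was not analysed here. A pair of further genes tied to this family were lower: CRLF2, which pairs with IL7R to bind TSLP, at -1.81 (SE 0.21), and IL13, a cytokine that signals through IL4R, at -1.01 (SE 0.26), with means of 140 and 3670 in the authors' deposited table.

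Of the kinases bound to the receptors, JAK3, the partner of the shared chain, fell with IL2RG, at -0.38 (SE 0.07, adjusted p = 8.03e-08) and a mean of 2849 in the authors' deposited table. JAK1, the partner of the other chains, had a mean of 20.3 in the authors' deposited table and a change of -0.58 (SE 0.55, adjusted p = 0.493). JAK1 mRNA is found in nearly all cell types, and whether the low means of JAK1 and IL2RB count all of their reads is not known from the table. JAK2 and TYK2 did not pass. STAT5A at 0.06 (SE 0.07) and STAT5B at -0.02 (SE 0.04) did not pass either, with adjusted p-values of 0.647 and 0.79 in the authors' deposited table. STAT6, the factor downstream of IL4R, was higher at 0.52 (SE 0.14), and STAT3 was lower at -0.37 (SE 0.06) in the authors' deposited table.

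A list of feedback inhibitors (CISH and the SOCS genes) and phosphatases of the pathway (PTPN2, PTPN6 and PTPN11) had 2 of 7 tested members higher and 0 lower. CISH and SOCS genes are induced by cytokine receptors and damp them, whereas PTPN11 mostly promotes signalling. In the authors' deposited table SOCS3 was at 0.67 (SE 0.14) and CISH, a STAT5 target that inhibits these receptors, at 0.37 (SE 0.15, adjusted p = 0.0391). Targets of STAT5, a list that also holds CISH, SOCS1 and SOCS2, went both ways, with 3 of 15 tested genes higher, CISH among them, and 6 lower, and a median log2 fold change of -0.38. The 4 largest changes past the threshold were all falls. The kinase genes PIM1 and PIM2 were at -1.72 (SE 0.17) and -1.33 (SE 0.09), and the survival genes BCL2 and MCL1 at -1.19 (SE 0.14) and -0.98 (SE 0.22) in the authors' deposited table. MYC, by contrast, was higher at 0.73 (SE 0.14) in the authors' deposited table. Of 5 tested STAT6 targets, 3 were lower and 1 higher. MAOA, a monoamine oxidase, was at -1.39 (SE 0.14), CD200R1, an inhibitory receptor, at -1.05 (SE 0.16) and BATF at -0.63 (SE 0.08), while FCER2 was at 5.17 (SE 1.57) with a mean of 3.53, all in the authors' deposited table.

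Adaptors and kinases below the receptors had 1 of 10 tested members higher and 4 lower, all 10 with means of at least 72.0, where 21.0% of tested genes were higher and 21.6% lower. PIK3R1, a regulatory subunit of phosphoinositide 3-kinase, was at 0.61 (SE 0.10) and its catalytic partner PIK3CD at -0.42 (SE 0.04) in the authors' deposited table. SOS1, an activator of RAS, was at -0.56 (SE 0.05) and the adaptor SHC1 at -0.44 (SE 0.13) in the authors' deposited table. Of 12 tested transcription factors known to act on receptor genes of this family, 8 were lower and 1 was higher, against the same shares. NFATC1 was at -1.28 (SE 0.24), NFATC2 at -1.22 (SE 0.16), EOMES, known in mice to activate IL2RB, at -1.25 (SE 0.18), and ETS1 at -0.81 (SE 0.05) in the authors' deposited table. NFKB1 was the 1 that rose, at 0.70 (SE 0.10) in the authors' deposited table. FOXO1 and TBX21, which in mice activate IL7R and IL2RB, had means of 0.849 and 0.669 in the authors' deposited table and were not tested. The sheddase gene ADAM10 was at -0.52 (SE 0.06) in the authors' deposited table, and ADAM17, with a mean of 7, did not pass.

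**Figure D4:**
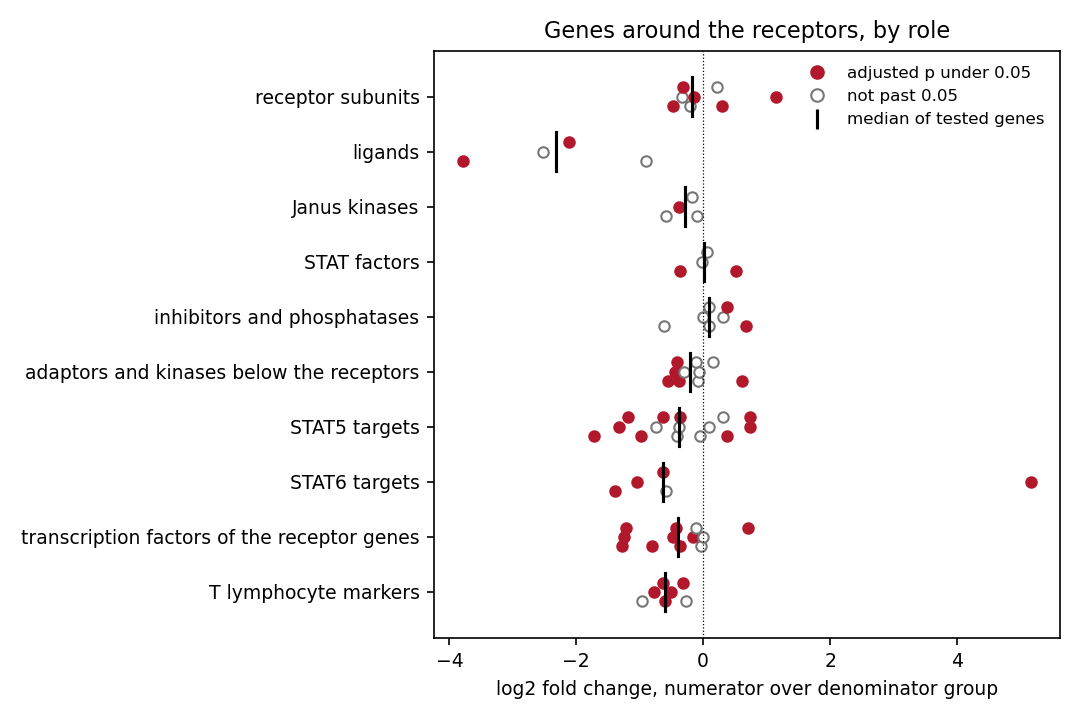
Log2 fold change, numerator over denominator group, of the tested genes listed for the receptor subunits, their ligands, kinases, STAT factors, inhibitors and phosphatases, adaptors, targets and regulators, and of T-lymphocyte markers, with filled points for an adjusted p under 0.05 and a black bar for the median of each list. The median is -0.17 for the subunits, -0.38 for STAT5 targets and -0.60 for T-lymphocyte markers.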

How the data were processed

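Libraries of HEK293T and alt-LAMA3 KO RNA were prepared with the SMARTer kit for mRNA (per the labels' protocols). Per the submitters' processing notes, STAR, Salmon and hg38 were used, with no version or role given. The table's columns carry the names used by DESeq2, per the file headers. Which program made the table, and which group its contrast divides by which, is not given in the sources used here. Of its 6 columns of values, per the file headers, the deposited mean normalized count over all libraries is treated as a signal, and the deposited fold change and error are log2 values. The deposited statistic, a score, is the ratio of these, and the deposited p-value and adjusted p-value were used as they stand. Recomputed Benjamini-Hochberg values differed from the deposited adjusted p by at most 3.66e-07.

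IDs were matched without version to names (33483 of 33644) and to GENCODE 29 (33582). Exact depth per library is unknown; the median standard error was 0.14 at means of at least 72.0 and 0.80 below. Intervals, tests against a 1.5-fold change, widened errors and other adjustments were computed from the deposited values. This used scipy 1.17.1, pandas 2.3.3 and numpy 2.4.6 under Python 3.11.15. The formulas of the tests, the Benjamini-Hochberg adjustment and the widening factor were tried on simulated data. The intervals and the other adjustments were not. Figures were drawn with matplotlib 3.10.9. p-values measure only the spread, which may be technical, between the samples behind the deposited standard errors. These samples may include libraries outside the 2 groups. Whether they are the labelled samples is not known. The planned count-based test, per-sample fits and leaving out replicates could not be run, as there are 0 columns of values per sample, and the deposited comparison was used. No gene is named for likeness of pattern for the same reason. The members and lists were chosen with earlier results of these data known. Named were all members, the 4 largest changes past the threshold per list, genes with a direct role beside a receptor, and tested neighbours within 100 kb. MYC, NFKB1, FOXO1, TBX21, the phosphatases and markers beyond that rule were named after their values were seen. The result of 1 listed gene is not reported here.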

Additional observations from a re-analysis of the deposited data

How the results depend on the processing

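The count of 5 receptor subunits past the threshold was also 5 when p-values were adjusted over every gene with a p-value, over genes with a mean of at least 72.0 (7 members tested) and over protein-coding genes. It was 1 in the test against a 1.5-fold change (IL21R, adjusted p = 0.00144; 4.68% of genes passed), 2 with widened errors (IL21R at 0.000913 and IL9R at 0.0211; 8.57% of genes passed) and 3 with Bonferroni adjustment (IL21R, IL9R and IL2RG; 12.6% of genes passed). The test against a 1.5-fold change asks for a larger change and the widened errors and Bonferroni adjustment are stricter by construction. IL4R and IL2RA lost their calls under all 3 of these, with adjusted p-values for widened errors of 0.295 for IL4R and 0.653 for IL2RA. Of 47 recomputed results of single subunits, 38 kept their side of the threshold, 9 lost the call and 0 gained it. With the longest protein-coding transcript as length, the levels per kb of IL2RG, IL4R (695) and IL15RA moved by over 1.5 times. No paired analysis was possible because the table holds no value per sample, and leaving out replicates was not run for the same reason. The largest standard errors among the subunits were those of IL2RB and IL7R, the members with the lowest means, at 0.85 and 0.29.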

Other observations

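Receptors of the wider type I and type II cytokine families also went both ways. Of 19 tested, 5 were higher and 7 lower in the numerator group, beside 14.7% and 14.8% of all tested genes, and the median change was -0.38 on the log2 scale. Among tested genes with a mean of at least 72.0, which 14 of these receptors reached, the shares were 21.0% and 21.6%. IL23R at 5.07 (SE 0.17) and LEPR at 1.68 (SE 0.14) were higher in the authors' deposited table. CSF2RA, the alpha chain for the growth factor GM-CSF, at -1.55 (SE 0.45), and IL10RA, a chain of the interleukin-10 receptor, at -1.29 (SE 0.06), were lower in the authors' deposited table.

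Around the receptor genes, 22 genes within 100 kb of a member were tested, members left out, of which 3 were higher and 1 lower, with a median log2 fold change of -0.07, where 14.7% of all tested genes were higher and 14.8% lower. The 3 were GTF3C1 beside IL21R, SPEF2, a gene of sperm flagella beside IL7R, at 0.51 (SE 0.16), and FBH1, a DNA helicase gene beside IL15RA, at 0.24 (SE 0.06) in the authors' deposited table. FOXO4, a forkhead factor gene that lies 3869 bases from IL2RG on the opposite strand, was lower in the authors' deposited table, at -0.59 (SE 0.17, adjusted p = 0.00276). The other 18, which did not pass, had log2 fold changes between -0.72 and 2.03: RBM17, PFKFB3 and ANKRD16 near IL2RA or IL15RA, MPST, KCTD17, C1QTNF6 and RAC2 near IL2RB, SOCS5P4, SNX12, CXorf65, MED12 and NLGN3 near IL2RG, KDM8 and NSMCE1 near IL4R, CAPSL near IL7R, VAMP7 and WASH6P near IL9R, and KATNIP near IL21R.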
